A study of Mus musculus with 32 samples.

Results

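A set of 938 autosomal regions was more accessible in the blood stem and progenitor cells of young adult mouse marrow than in those of newborn and 1-week marrow. The regions were chosen by their own read counts. Each had a mean of at least 5 CPM (read counts scaled to the total of the library) over the 6 adult libraries (6w BM and 8w BM), a mean at least 1.5 times that of the 6 neonatal libraries (Perinatal BM and 1w BM), and a lowest adult library above the highest neonatal one. They made up 938 of 96960 autosomal regions (0.967%) in a table of 99037, and 2.17% of the 43300 autosomal regions with an adult mean of at least 5 CPM. The difference between adult and neonatal marrow selected them, so it is given as a description and was not tested. The mirror rule, with every neonatal library above every adult one, took 1189 regions.

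The values are ATAC-seq counts. In this assay the Tn5 transposase cuts accessible DNA and inserts sequencing adapters, so the reads over a stretch of genome follow how exposed it is in the nuclei used. All libraries came from cells labelled LSK of C57BL/6 mice, with no other allele or transgene named in the labels. LSK cells lack the markers of mature blood lineages and carry Sca-1 and Kit, the gate that holds haematopoietic stem cells and early progenitors. The 26 developmental libraries were E12.5 PL, E12.5 FL (fetal liver), E16.5 FL, Perinatal BM (bone marrow around birth), 1w BM, 3w BM, 4w BM, 6w BM and 8w BM. Each group has 3 libraries, except 3w BM, which has 2. The labels do not spell out PL. In a further experiment, E12.5 FL cells were held for 2 h in medium from E16.5 hepatocytes (co-SHI, 3 libraries) or in basic medium (SHI, 3 libraries).

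During development blood stem cells leave the fetal liver around birth and settle in the marrow. In mice they divide often for the first weeks of life and then become largely quiescent, and the genes they use change with that switch. Most DNA that opens or closes as a cell type matures lies away from gene starts, in enhancers, the switches that raise the transcription of a gene from a distance. Stem cell quiescence in adult marrow is tied to transforming growth factor beta (TGF-beta) signalling, to the cyclin-dependent kinase inhibitors and to a group of rapidly induced transcription factors.

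Total counts over all regions ran from 2845113 (1w BM 2) to 10167340 (1w BM 3), and all 938 late-opened regions passed the filter on low counts. One adult library, 8w BM 3, is titled as 8w BM but carries a stage label of E12.5. Without it the rule took 1098 regions, of which 922 were among the 938. Of the LSK markers, the 16 regions nearest to Kit summed to 72.8 to 86.3 CPM in adult and 74.1 to 96.6 CPM in neonatal libraries, and the 10 nearest to Ptprc, the pan-blood-cell antigen CD45, to 110.4 to 142.6 CPM in adult and 126.7 to 152.2 CPM in neonatal ones. The only region nearest to Ly6a, which encodes Sca-1, held at most 2.44 CPM in adult and 4.70 CPM in neonatal libraries, so the gate could not be checked with it. Whether separate animals gave the libraries of a group is not stated in the labels.

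Some of the late-opened regions lay beside microRNA genes. Those by miR-142 and the miR-23a cluster were among the regions of high adult level. The 2 by miR-21a had adult means of 19.9 and 27.45 CPM. MicroRNAs are short RNAs that pair with messenger RNAs and lower their output, mostly through the seed, bases 2 to 8 of the mature strand. Their mature sequences from RefSeq (GRCm38.p6) are printed because they identify what these regions neighbour, with the seed in capitals.
mmu-miR-142a-3p: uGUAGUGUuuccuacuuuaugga
mmu-miR-142a-5p: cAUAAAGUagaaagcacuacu
mmu-miR-21a-5p: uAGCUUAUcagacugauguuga
mmu-miR-23a-3p: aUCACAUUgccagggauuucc
mmu-miR-27a-3p: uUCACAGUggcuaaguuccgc
mmu-miR-24-3p: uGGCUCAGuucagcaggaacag

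No pair of these strands shares a seed. miR-142 is made almost only in blood cells, and its hairpin (chromosome 11, 87756864 to 87756927, plus strand) lay 1437 bp from a late-opened region at chr11:87758364-87759426. miR-21 is induced by many growth and stress signals, and its hairpin (chromosome 11, 86584067 to 86584158, minus strand) lay 825 bp from a region at chr11:86582742-86583242. A further late-opened region, at chr11:86582071-86582635, lay 1432 bp from that hairpin, with means of 27.45 CPM in adult and 6.17 CPM in neonatal marrow. The miR-23a, miR-27a and miR-24-2 hairpins form a cluster on the plus strand of chromosome 8, whose miR-24-2 hairpin (84208815 to 84208921) lay 859 bp from a region at chr8:84209780-84210863.

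Gene starts were uncommon among the regions, and 3 of the promoters that they covered are shown next. RefSeq promoter windows of GRCm38.p6, from 250 bases before to 50 bases after a start, were searched for short motifs on both strands. The 250 bases before the start are printed 5′ to 3′ on the strand of the gene for 3 genes with a known part in blood or stress responses, chosen after their levels were seen. Klf9 encodes a Krüppel-like repressor that glucocorticoids induce (chr19:23140976-23141225, plus strand). Itga2b encodes CD41, the integrin of platelets and of early blood progenitors (chr11:102469884-102470133, minus strand). Nlrp3 encodes the sensor of an inflammasome (chr11:59541319-59541568, plus strand). Capitals mark matches to the motifs.
Klf9: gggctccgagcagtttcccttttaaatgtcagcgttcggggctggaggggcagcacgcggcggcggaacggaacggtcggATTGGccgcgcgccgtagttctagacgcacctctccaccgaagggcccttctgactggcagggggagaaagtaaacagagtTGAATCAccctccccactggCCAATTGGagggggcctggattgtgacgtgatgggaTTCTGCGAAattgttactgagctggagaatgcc
Itga2b: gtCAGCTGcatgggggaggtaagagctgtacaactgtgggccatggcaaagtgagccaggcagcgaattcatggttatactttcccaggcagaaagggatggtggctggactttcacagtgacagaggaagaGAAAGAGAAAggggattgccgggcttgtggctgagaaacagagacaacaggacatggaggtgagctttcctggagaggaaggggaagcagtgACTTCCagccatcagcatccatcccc
Nlrp3: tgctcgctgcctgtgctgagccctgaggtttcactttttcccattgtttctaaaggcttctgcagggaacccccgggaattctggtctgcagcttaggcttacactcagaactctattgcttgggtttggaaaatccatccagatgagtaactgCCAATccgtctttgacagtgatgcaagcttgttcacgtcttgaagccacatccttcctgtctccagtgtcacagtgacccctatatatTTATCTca

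The Klf9 stretch holds an AP-1 motif (TGANTCA, in 7.85% of all 31365 windows), a STAT motif (TTCNNNGAA, 8.34%) and 3 NF-Y motifs (CCAAT, 37.3%), 2 of which overlap. The Itga2b stretch holds an ETS motif (GGAAGT, 23.9%), an IRF motif (3.45%) and an E-box (CAGCTG, 16.3%). The Nlrp3 stretch holds a GATA motif (AGATAA, 11.2%) and an NF-Y motif. Also searched were a second ETS form (CGGAAG), a C/EBP motif (TTGCNNAA), a RUNX motif (TGTGGT) and a KLF and SP motif (GGGCGG). A match describes letters and is no evidence of binding. Of the 894 late-opened regions outside chromosome 18, which the promoter table used here does not cover, 42 (4.70%) overlapped a promoter window, against 25.5% of the 41923 regions with an adult mean of at least 5 CPM. Their 47 windows had a median GC content of 53%, the same as all windows, against 62% for the 13602 windows of those regions. GGGCGG was in 21.3% of the 47 windows, against 66.1% of the 13602 and 36% of all. TGTGGT was in 21.3%, 12.8% and 16.7% of them, in the same order. The motif counts rest on 10 windows each and are descriptions.

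The late-opened regions lay inside genes or between them. Of the 894, 7.94% were within 1 kb of a gene start, against 31.9% of the 41923. By contrast 8.5% lay in the stretch from 1 kb before to 3 kb past the 3′ end of a gene, against 4.17%, and among the 38 with an adult to neonatal ratio of at least 5 this share was 15.8% (6 regions). The rest of the gene body held 37.9%, against 26.2%, and 45.6% were outside genes, against 37.8%. By the nearest gene within 50 kb, the 938 regions touched 737 genes, of which 654 had 1 region, 70 had 2 and 13 had 3 or more, and 97 regions had no gene in reach. The regions were 501 to 1931 bp wide, with a median of 582 bp, and 182 (19.4%) had another late-opened region within 50 kb.

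Over all 938 regions the median of the adult means was 11.8 CPM and that of the neonatal means 5.50 CPM, and the adult to neonatal ratio had a median of 2.05 (quartiles 1.74 and 2.65). The ratio reached 2 in 498 regions, 3 in 162 and 5 in 40, and its largest value was 11.9. Among the autosomal regions with an adult mean of at least 5 CPM the medians were 11.5 CPM in adult and 11.98 CPM in neonatal marrow, with a median ratio of 1.01. The lowest adult library was above the highest neonatal one in 1.56% of autosomal regions, the criterion that every late-opened region meets by choice. Around the ratio of 1.5 the values ran on without a gap, with regions by Zeb2 (1.501), Slc38a7 (1.505) and Castor2 (1.505) just inside and regions by Prkcd (1.498), Capn3 (1.499) and Myo1e (1.499) just outside. Late-opened regions took 1.82% ± 0.113 of all counts at 6w BM and 1.74% ± 0.0562 at 8w BM (SD, n = 3 each), against 0.794% ± 0.0461 at Perinatal BM and 0.903% ± 0.0507 at 1w BM (SD, n = 3 each).

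**Figure D1:**
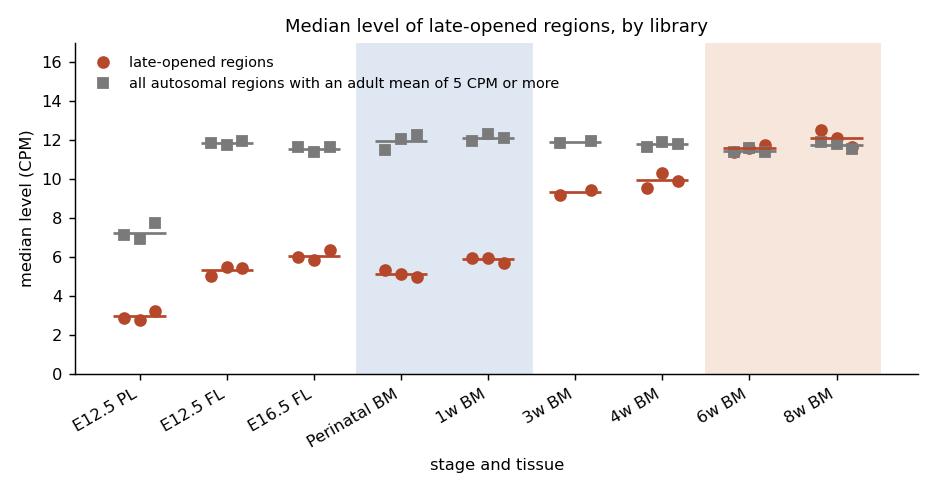
Median level (CPM) of the 938 late-opened regions (circles) and of all autosomal regions with an adult mean of at least 5 CPM (squares) in each library, by stage and tissue, with a line at the mean of each group. The late-opened regions sit near 5 to 6 CPM in fetal liver and in neonatal marrow (blue band), near 9 to 10 CPM at 3w and 4w BM and near 11 to 13 CPM in adult marrow (orange band), while the squares stay near 11 to 12 CPM outside E12.5 PL.

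The 3w and 4w libraries took no part in the choice and lay between the neonatal and adult levels. The rule picks high adult and low neonatal values, so a position between them is partly built into the choice. The median of the regions' means was 9.29 CPM at 3w BM (n = 2 libraries) and 9.89 CPM at 4w BM (n = 3). On a scale from the neonatal mean at 0% to the adult mean at 100%, the pooled 3w and 4w mean stood at a median of 63.1% (quartiles 46.8% and 81.3%), with 57.7% for 3w BM and 66.7% for 4w BM alone. The position was under 25% in 63 regions, from 25% to 50% in 217, from 50% to 75% in 348 and at 75% or more in 310. All 5 libraries of 3w and 4w BM were above all 6 neonatal ones in 377 late-opened regions (40.2%). The share was 1.35% of all autosomal regions and 2.25% of those with an adult mean of at least 5 CPM. All 5 were below all 6 adult ones in 91 regions (9.70%), against 0.502%. Both counts share a group with the choice and are descriptions.

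The regions with the largest ratios stood lower on that scale. The median position was 67.7% for ratios from 1.5 to 2 (440 regions), 62.7% from 2 to 3 (336 regions), 59.7% from 3 to 5 (122 regions) and 36.5% at 5 or more (40 regions). Of the last 40, 29 (72.5%) were under 50%. The ratio and the position share the neonatal and adult means, so their relation is a description and was not tested.

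**Figure D2:**
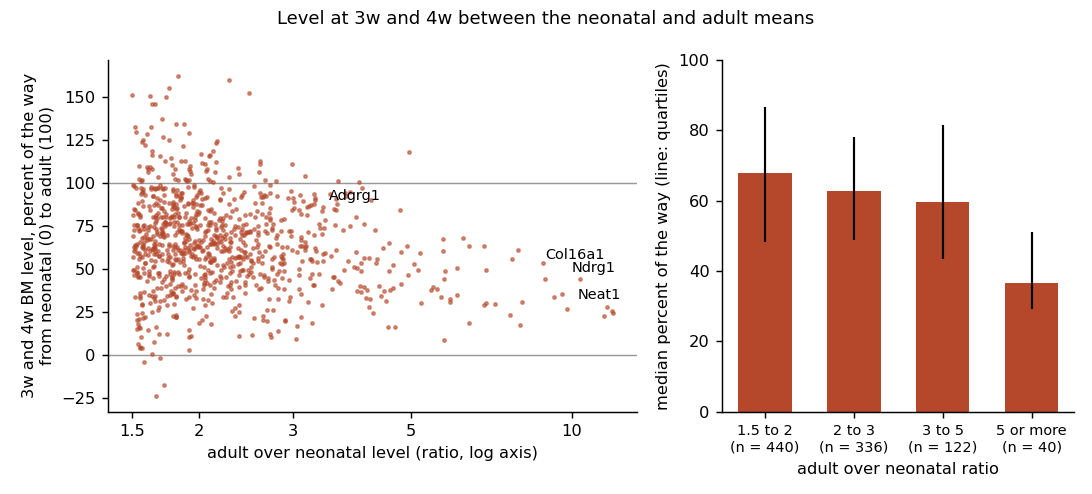
Left, the 3w and 4w BM level of each late-opened region as a percent of the way between the neonatal mean (0) and the adult mean (100), against its adult over neonatal ratio on a log axis. Right, medians of the same percent in 4 classes of that ratio, with quartiles as lines; the median is 36.5% for ratios of 5 or more and 59.7% to 67.7% in the other classes.

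The largest ratio belonged to a region inside Neat1 (chr19:5839658-5840170), a long non-coding RNA that builds nuclear paraspeckles. It held 21.5 to 87.1 CPM in adult libraries (median 47.8 CPM, n = 6), against 2.09 to 8.08 CPM in neonatal ones (median 3.81 CPM, n = 6). At 3w BM it held 16.9 and 22.3 CPM and at 4w BM 20.3, 6.12 and 15.3 CPM. The 4w BM 2 library thus fell among the neonatal values, 3w BM 2 reached the adult range and the other 3 lay between the groups. Neat1 had 6 late-opened regions, the most of any gene. Their sum was 464.1, 199.6 and 543.4 CPM at 6w BM and 293.2, 194.6 and 346.0 CPM at 8w BM, against 53.1 to 99.8 CPM in neonatal libraries. The adult libraries differed by up to 2.79 times between each other and did not overlap with the neonatal ones.

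Among the next largest ratios were regions by Ndrg1, Col16a1, Actb, Vmp1, Actg1, Dennd3, Iqcn, Btg2, Retreg1, Egr1 and Fam104a. A region near the end of Actb, the gene of beta-actin, held 26.4 to 84.7 CPM in adult and 2.56 to 6.98 CPM in neonatal libraries, and one beyond Actg1, the gene of gamma-actin, held 18.7 to 61.9 CPM in adult and 0.703 to 7.18 CPM in neonatal libraries. Actb had 3 late-opened regions within 2 kb. Ndrg1, a stress-response gene, had a region in its body with 8.02 to 15.5 CPM in adult libraries, against 0 to 2.09 CPM in neonatal ones. The region closest to miR-21a, whose nearest gene is Vmp1, held 9.42 to 34.6 CPM in adult and 0.351 to 4.70 CPM in neonatal libraries. At 3w BM it held 8.89 and 6.93 CPM, and at 4w BM 10.3, 4.19 and 11.6 CPM. The Dennd3, Retreg1 and Fam104a regions held 7.74 to 22.4, 7.55 to 14.03 and 8.60 to 15.2 CPM in adult libraries, against 0.703 to 2.66, 0 to 3.52 and 1.18 to 3.13 CPM in neonatal ones. In each of these regions adult and neonatal libraries did not overlap, by the rule.

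The region by Iqcn at chr8:70702317-70703201 lay 1701 bp from Jund, which encodes a subunit of AP-1. It held 26.5 to 194.5 CPM in adult libraries, against 7.68 to 20.2 CPM in neonatal ones. At 3w BM it held 15.8 and 19.8 CPM and at 4w BM 58.5, 14.7 and 37.8 CPM, so 3 of these 5 libraries lay among the neonatal values. Col16a1, a fibril-associated collagen gene, differed from these in its small spread. Its intragenic region held 21.8 to 31.4 CPM in adult libraries and 1.30 to 3.86 CPM in neonatal ones, with 10.6 and 10.7 CPM at 3w BM and 16.3, 14.3 and 13.0 CPM at 4w BM, all between the groups.

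The summed level of the regions with a ratio of 5 or more differed between libraries of the same age. The 40 levels summed to 1380, 827 and 1661 CPM at 6w BM 1, 2 and 3 and to 985, 737 and 1120 CPM at 8w BM 1, 2 and 3. The sums were 438.4 and 443.1 CPM at 3w BM and 674.4, 409.5 and 527.3 CPM at 4w BM. In the neonatal libraries they were 109.3 to 216.4 CPM, in fetal liver 216.0 to 277.8 CPM and in E12.5 PL 203.4 to 218.9 CPM. The lowest adult sum was 3.41 times the highest neonatal one. The other 898 regions summed to 15633 to 17861 CPM in adult libraries, a far narrower spread, and to 7512 to 9382 CPM in neonatal ones. Single regions did not all follow the sums. The Dennd3 region held 16.2, 22.4 and 7.74 CPM at 6w BM 1, 2 and 3, so 6w BM 2 was the highest of the 3 there and the lowest in the sums, and the Fam104a region held 8.60, 14.2 and 8.95 CPM in the same libraries. What set the spread of the sums among adult libraries was not tested.

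**Figure D3:**
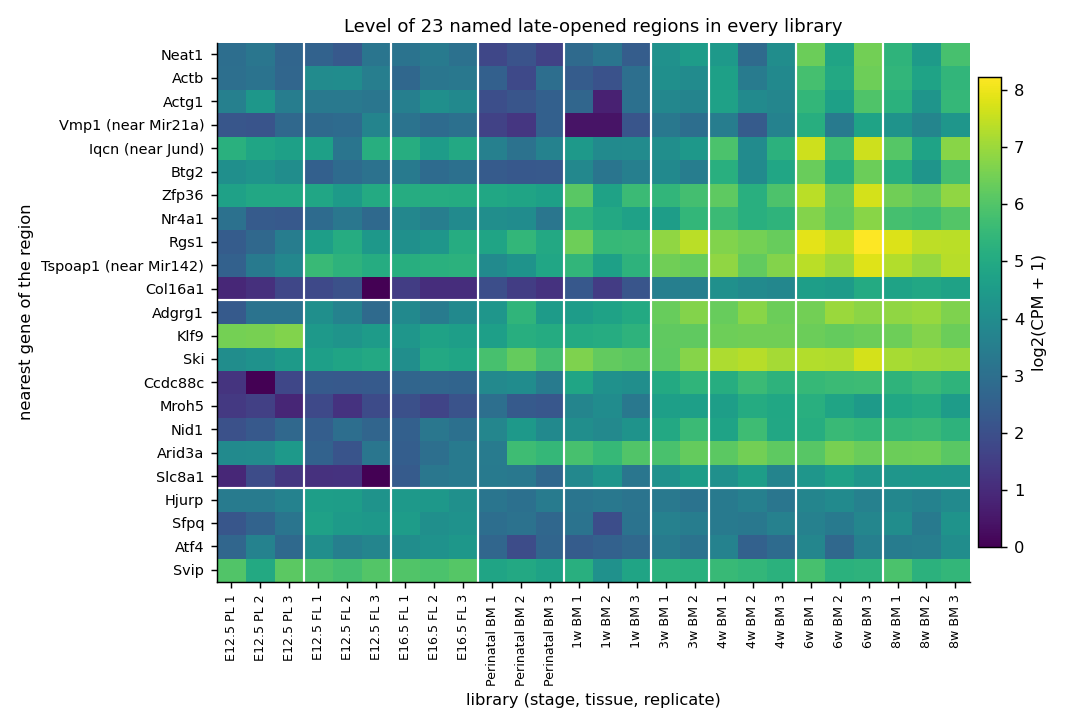
Level, as log2(CPM + 1), of 23 named late-opened regions (rows, by nearest gene) in each of the 26 developmental libraries (columns). The upper block has regions of large ratio or beside rapidly induced genes, bright in adult marrow and in several rows uneven between its libraries. In each row of the middle block every 3w and 4w BM library is brighter than every fetal liver library. The lower block has the 4 regions with lower levels at 3w and 4w BM than in fetal liver.

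Against fetal liver, the regions were tested in libraries that the rule had not used. In 3w and 4w BM over E12.5 and E16.5 FL (5 against 6 libraries), 656 of 938 regions (69.9%) were higher and 4 (0.426%) lower, by edgeR's quasi-likelihood test with Benjamini-Hochberg adjustment over 99005 regions at 0.05. Of all 99005 regions, 16339 were higher and 11496 lower. Of the 43300 autosomal regions with an adult mean of at least 5 CPM, a minimum that itself favours marrow, 35.1% were higher and 3.46% lower. The median log2 fold change was 1.02 for the late-opened regions (quartiles 0.52 and 1.48) and -0.09 for all regions. With total counts in place of TMM scaling the median of all regions was -0.30 and with DESeq2's size factors -0.17. The late-opened regions stood 1.11 above it with TMM, 1.10 with total counts and 1.11 with size factors. Among all regions called, 58.7% were higher with TMM, against 34.1% with total counts, 48.5% with size factors and 53.3% with loess offsets; for the late-opened regions the share was 99.4% with TMM and 98.1% with total counts. By position, the regions higher at 3w and 4w BM were 74 of 113 regions at gene ends, 325 of 465 in gene bodies, 186 of 263 intergenic and 71 of 97 without a gene within 50 kb.

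**Figure D4:**
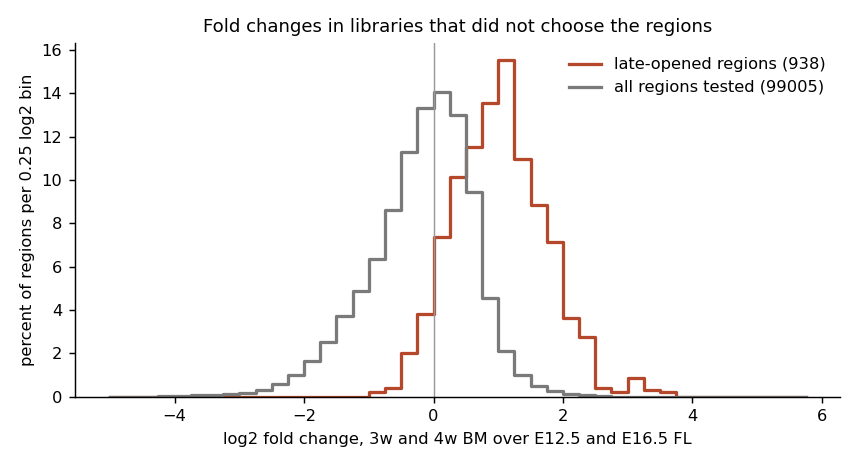
Distribution of log2 fold changes of 3w and 4w BM over E12.5 and E16.5 FL for the 938 late-opened regions and for all 99005 regions tested, as the percent of regions in each bin of 0.25. The late-opened regions centre on a median of 1.02 and the full set on -0.09.

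At the median, the fetal liver levels of the regions were close to the neonatal ones. The median of the fetal liver means was 5.73 CPM, and the ratio of the fetal liver to the neonatal mean had a median of 1.01 (5th and 95th percentiles 0.48 and 2.18). By adult to neonatal ratio, that median was 0.947 under 2, 0.972 from 2 to 3, 1.25 from 3 to 5 and 1.91 at 5 or more. Both ratios share the neonatal mean, so their relation is a description. Fetal liver was at or under neonatal marrow in 465 regions and at least 1.5 times above it in 177, and it was above the adult mean in 35. E12.5 PL had the lowest mean of the 9 groups in 623 regions, with a median of 2.96 CPM. Between E16.5 FL and E12.5 FL, 1 late-opened region was higher and 0 lower (edgeR, background 0.00101% and 0%; 99 and 31 at an unadjusted p under 0.05; DESeq2 called 3 higher of 570 given an adjusted p). It was in Slc8a1, the sodium-calcium exchanger, with 4.19, 8.61 and 9.42 CPM at E16.5 FL, against 1.26, 1.31 and 0 CPM at E12.5 FL (log2 fold change 3.01, SE 0.50, edgeR adjusted p = 0.0125). The groups did not overlap there, but the call was lost without E12.5 FL 2, E12.5 FL 3, E16.5 FL 2 or E16.5 FL 3. Between 4w BM and 3w BM edgeR called 0 higher and 0 lower, and DESeq2 the same (background 0.00101% and 0.00707% by edgeR; 59 higher and 12 lower at an unadjusted p under 0.05). The 4w mean was above the 3w mean in 582 of 938 regions.

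Among the regions with the smallest p in 3w and 4w BM over fetal liver, 1 lay inside Adgrg1 (chr8:95012360-95013113). Adgrg1 encodes GPR56, an adhesion receptor of blood stem cells. The region held 77.9 and 103 CPM at 3w BM and 78.6, 109 and 82.0 CPM at 4w BM, against 6.25 to 16.1 CPM in fetal liver (median 12.7 CPM, n = 6). The groups were far apart, with a log2 fold change of 3.13 (SE 0.18, edgeR adjusted p = 5.95e-21). Neonatal marrow was already above fetal liver, at 19.2 to 40.6 CPM, and adult marrow held 88.8 to 126 CPM.

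A region inside Arid3a, a DNA-binding protein listed here with the fetal program, had the largest of these fold changes, 3.72 (SE 0.22, edgeR adjusted p = 7.43e-20). It held 56.9 and 77.1 CPM at 3w BM and 70.0, 87.5 and 71.5 CPM at 4w BM, against 3.40 to 9.42 CPM in fetal liver. In neonatal marrow it ran from 9.74 to 62.6 CPM, with a median of 47.0 CPM. A region 4894 bp from Klf9 (chr19:23134729-23136332) held 74.0 and 74.0 CPM at 3w BM and 83.7, 85.9 and 86.6 CPM at 4w BM, against 18.02 to 25.6 CPM in fetal liver (log2 fold change 2.10, SE 0.13, edgeR adjusted p = 7.43e-20). Here E12.5 PL was high as well, at 90.9, 92.8 and 99.97 CPM, and E12.5 FL was lower than E12.5 PL (log2 fold change -2.52, edgeR adjusted p = 2.44e-16). The region over the Klf9 promoter printed above had the same pattern at a lower level. Its mean was 44.7 CPM at 3w and 4w BM, 21.7 CPM in fetal liver and 69.4 CPM in E12.5 PL (3w and 4w BM over fetal liver 1.24, SE 0.15, edgeR adjusted p = 1.45e-09). The other 2 promoters printed above also lay under regions that were higher at 3w and 4w BM. The Itga2b region held 23.2 and 22.3 CPM at 3w BM and 23.3, 24.2 and 21.7 CPM at 4w BM, against 8.03 to 18.1 CPM in fetal liver (log2 fold change 1.17, SE 0.18, edgeR adjusted p = 6.3e-07). The Nlrp3 region held 11.4 and 5.88 CPM at 3w BM and 10.96, 11.6 and 12.6 CPM at 4w BM, against 2.10 to 9.69 CPM in fetal liver (log2 fold change 1.06, SE 0.25, edgeR adjusted p = 0.000672). In the Nlrp3 region 3w BM 2 lay within the fetal liver range, whereas at Itga2b the groups did not overlap.

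Regions by Ccdc88c, Mroh5 and Nid1 were low in fetal liver and close to adult levels at 3w and 4w BM. Ccdc88c encodes a regulator of Wnt signalling that binds Dishevelled. Its region held 31.1 to 47.7 CPM at 3w and 4w BM, against 3.92 to 5.56 CPM in fetal liver. Nid1 encodes the basement membrane protein nidogen, and the region 19589 bp from it had a log2 fold change of 2.79 (SE 0.20, edgeR adjusted p = 7.38e-17). These members stood at 78.5% (Ccdc88c), 93.5% (Mroh5) and 80.1% (Nid1) of the way between the neonatal and adult means.

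The 4 regions with lower levels at 3w and 4w BM than in fetal liver had small changes. Their nearest genes were Hjurp, the chaperone of the centromeric histone, Sfpq, a paraspeckle and splicing protein, Atf4, a stress-response transcription factor, and Svip, an inhibitor of protein degradation at the endoplasmic reticulum. The Hjurp region held 9.01 and 7.77 CPM at 3w BM and 9.33, 10.9 and 8.47 CPM at 4w BM, against 16.6 to 23.7 CPM in fetal liver (log2 fold change -0.95, SE 0.18, edgeR adjusted p = 3.58e-05), without overlap. The fold changes were -0.76 (SE 0.20) for Sfpq, -0.69 (SE 0.23) for Atf4 and -0.42 (SE 0.15) for Svip, with edgeR adjusted p of 0.00359, 0.0188 and 0.0335. The calls of Atf4 and Svip were each lost without some libraries: for both without E12.5 FL 1, for Atf4 also without 3w BM 2 or 4w BM 2, and for Svip also without E12.5 FL 3, E16.5 FL 3, 3w BM 1, 3w BM 2 or 4w BM 3.

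Of the gene lists, the targets and regulators of TGF-beta and BMP signalling had the most late-opened regions. TGF-beta ligands bind receptor kinases that activate SMAD proteins, and Ski, Skil, Smad6 and Smad7 limit that response. Of the 135 regions with an adult mean of at least 5 CPM nearest to the 20 genes of the list, 10 (7.41%) were late-opened, by 6 genes, against 2.17% of all such regions. All 10 were higher at 3w and 4w BM than in fetal liver, where 35.1% of all such regions and 69.9% of the late-opened ones were. The list was chosen with earlier results of these data known, so the counts are a description.

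Ski, a repressor that binds SMAD complexes, had 4 of the 10. Its strongest region (chr4:155200710-155201332) held 72.3 and 106 CPM at 3w BM and 149, 162 and 137 CPM at 4w BM, against 15.9 to 30.4 CPM in fetal liver (log2 fold change 2.37, SE 0.15, edgeR adjusted p = 1.83e-19). Adult libraries held 125 to 207 CPM and neonatal ones 53.7 to 98.3 CPM, so 3w BM 1 fell among the neonatal values and 4w BM among the adult ones. Summed over its 4 regions, Ski held 317.9 to 481.7 CPM in adult, 164.4 to 249.2 CPM in neonatal, 207.1 to 407.1 CPM in 3w and 4w and 74.8 to 113.4 CPM in fetal liver libraries. A region at the end of Skil, a close relative, had 3w and 4w BM and fetal liver means of 9.36 and 2.13 CPM (log2 fold change 2.24, SE 0.29, edgeR adjusted p = 1.26e-08). The intragenic Smad6 and Smad7 regions, by inhibitors of SMAD activation, had fold changes of 1.13 (SE 0.18) and 1.16 (SE 0.14). A region by Tgfb1, the ligand itself, had 1.05 (SE 0.16), with edgeR adjusted p of 1.07e-06, 5.19e-09 and 4.43e-07 for the 3. A region by Zeb2, a SMAD-interacting repressor, had 1.36 (SE 0.18, edgeR adjusted p = 4.42e-08).

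Of the immediate early genes, which are transcribed within minutes of a signal, 5 of 152 regions (3.29%) were late-opened, against 2.17% of all such regions. All 5 were higher at 3w and 4w BM than in fetal liver, as were 69.9% of all late-opened regions. They lay by Btg2, an antiproliferative gene, Egr1 and Nr4a1, transcription factors active in quiescent stem cells, Ier2, and Zfp36, which destabilises messenger RNAs. The Nr4a1 region held 22.9 and 42.6 CPM at 3w BM and 47.6, 35.8 and 39.7 CPM at 4w BM, against 5.98 to 14.4 CPM in fetal liver (log2 fold change 2.17, SE 0.18, edgeR adjusted p = 2.66e-14). Adult libraries held 50.1 to 109 CPM and neonatal ones 8.35 to 38.8 CPM there. The fold changes were 2.04 (SE 0.26) for Egr1 and 0.98 (SE 0.18) for Zfp36, with edgeR adjusted p of 1.03e-08 and 2.56e-05, and the Zfp36 call was lost with loess offsets. In the Btg2 region the 3w BM libraries held 13.9 and 10.3 CPM and the 4w BM ones 35.4, 14.3 and 28.3 CPM, against 18.7 to 81.5 CPM in adult and 3.84 to 13.3 CPM in neonatal libraries. Only 4w BM 1 and 4w BM 3 reached the adult range. These members stood at 30.3% (Btg2), 18.8% (Egr1), 45.3% (Ier2), 29.0% (Nr4a1) and 18.3% (Zfp36) of the way to the adult mean.

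G protein signalling genes had 4 of 112 regions (3.57%, against 2.17% of all such regions), and all 4 were higher at 3w and 4w BM than in fetal liver, against 69.9% of all late-opened regions. Rgs1, which shortens chemokine receptor signals, had a region at its end (chr1:144243262-144244691) with 166.5 to 299 CPM in adult and 26.9 to 84.3 CPM in neonatal libraries. It held 116 and 166.0 CPM at 3w BM and 102, 90.4 and 78.1 CPM at 4w BM, against 16.46 to 33.5 CPM in fetal liver (log2 fold change 2.42, SE 0.17, edgeR adjusted p = 8.87e-17). Gng2, a G protein gamma subunit, and Rgs10 had fold changes of 2.49 (SE 0.30) and 0.80 (SE 0.22).

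The stem and progenitor list had 6 of 203 regions (2.96%), near the 2.17% of all such regions. Beside Adgrg1, the regions in Mecom and Meis1, transcription factors that maintain stem cells, had fold changes of 1.19 (SE 0.27) and 0.98 (SE 0.21) over fetal liver, and that by Slamf1, the SLAM receptor CD150, 0.86 (SE 0.22). Etv6 gave the member that did not pass, at 0.25 (SE 0.29). Of the adult-type stem cell list 3 of 136 regions (2.21%) were late-opened, by Cdkn1a, the inhibitor p21, and by Egr1 and Nr4a1. The fetal-type list had 4 of 80 (5.00%), by Arid3a, Igf1r and Zbtb16, and 2 of the 4 were called higher, against 69.9% of all late-opened regions. The call of the Igf1r region (fold change 0.67, edgeR adjusted p = 0.0305) held in only 7 of 18 alternatives. The Zbtb16 region held a mean of 3.29 CPM at 3w and 4w BM, against 2.77 CPM in fetal liver, and its fold change of 0.52 (SE 0.37) was not called.

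The inflammatory and NF-kB list had 4 of 100 regions (4%). The list of JAK-STAT targets and SOCS genes had 2 of 97 (2.06%). Of all such regions 2.17% were late-opened. Over fetal liver 3 of the 4 and 2 of the 2 were called higher, against 69.9% of all late-opened regions. A region 25700 bp from Il1b, the cytokine interleukin-1 beta, held 15.4 to 23.1 CPM at 3w and 4w BM, against 2.09 to 7.50 CPM in fetal liver, without overlap (log2 fold change 2.12, SE 0.22, edgeR adjusted p = 3.21e-11). The Nfkbia region, by the NF-kB inhibitor, had means of 10.9 CPM and 10.8 CPM in the same groups (fold change 0.24, SE 0.21, not called). Regions by Tnfrsf1b (1.47, edgeR adjusted p = 9.61e-09) and Nfkbiz (0.48, edgeR adjusted p = 0.0323) were called. The Nfkbiz call held in 9 of 18 alternatives. Socs3, a feedback inhibitor of cytokine receptors, had a region 11517 bp away with 19.96 to 27.1 CPM at 3w and 4w BM, against 6.25 to 8.89 CPM in fetal liver (log2 fold change 1.85, SE 0.18, edgeR adjusted p = 7.16e-12). Of the interferon list 1 of 52 regions (1.92%) was late-opened, by Gbp2, and it was not called over fetal liver.

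Some lists of mature cell types had 0 late-opened regions. These were neutrophil and myeloid progenitor (of 42), macrophage and dendritic (of 74), erythroid (of 29), endothelial (of 74), stromal (of 43) and hepatocyte genes (of 13). Of all such regions 2.17% were late-opened, and lists this short would hold few at that share. Megakaryocyte and platelet genes had 2 of 67 (2.99%), mast cell and basophil genes 1 of 25 (4%) and lymphoid and B cell genes 2 of 86 (2.33%). T and NK cell genes had 3 of 73 (4.11%), by Prf1, Thy1 and Zap70. The summed level of all 156 regions nearest to that list ran from 1388 to 1440 CPM in adult and from 1344 to 1482 CPM in neonatal libraries. Summed levels of the macrophage list were 1300 to 1605 CPM in adult and 1381 to 1758 CPM in neonatal libraries, and those of the lymphoid and B cell list 1617 to 1803 CPM and 1823 to 1989 CPM in the same order. LSK cells are a mixture, and more cells with a region open cannot be told apart from a more open region in each cell.

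Several genes had clusters of late-opened regions. Klf13, a Krüppel-like repressor, had 5, of which 4 were called higher at 3w and 4w BM than in fetal liver. In that comparison 69.9% of all late-opened regions were called higher, and 35.1% of the autosomal regions with an adult mean of at least 5 CPM. Its region at chr7:63925282-63925847 held 54.9 and 62.4 CPM at 3w BM and 69.0, 77.7 and 74.0 CPM at 4w BM, against 17.1 to 26.6 CPM in fetal liver (log2 fold change 1.81, SE 0.16, edgeR adjusted p = 1.33e-13). It held 80.8 to 151 CPM in adult and 36.0 to 76.7 CPM in neonatal libraries, so only 4w BM 2 was above all neonatal libraries. Hivep3, a zinc-finger protein gene, had 4 intragenic regions, all higher than in fetal liver (1.01 to 1.68). One of them (chr4:120011680-120012305) held 14.5 and 12.8 CPM at 3w BM and 18.7, 19.8 and 19.6 CPM at 4w BM, against means of 29.3 CPM in adult and 17.3 CPM in neonatal marrow. All 5 libraries lay within the neonatal range of 10.6 to 23 CPM and below the lowest adult library, at 24.2 CPM. Nav2, which guides cell extensions, had 4 intragenic regions with 1 call over fetal liver.

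The 3 regions by miR-142, whose nearest gene is Tspoap1, were strong in marrow and present in fetal liver. The nearest to the hairpin held 122 to 225 CPM in adult libraries (median 157 CPM) and 14.2 to 41.3 CPM in neonatal ones (median 26.4 CPM). It held 85.9 and 79.4 CPM at 3w BM and 116, 74.9 and 102 CPM at 4w BM, all between the groups, against 33.1 to 46.9 CPM in fetal liver and 4.89, 9.28 and 12.9 CPM in E12.5 PL. The log2 fold change was 1.45 (SE 0.15, edgeR adjusted p = 5.12e-11) at 3w and 4w BM over fetal liver, and 1.12 (SE 0.14) and 0.85 (SE 0.18) at the other 2. The last was lost with loess offsets. The region by the miR-23a cluster had a 3w and 4w mean of 37.4 CPM, against 20.3 CPM in fetal liver (log2 fold change 1.03, SE 0.18, edgeR adjusted p = 9.58e-06). The region closest to miR-21a had 8.37 CPM, against 7.65 CPM (fold change 0.33, SE 0.30, adjusted p = 0.426 by edgeR), without a call. The other region by miR-21a is not reported here in this comparison.

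The fold changes over fetal liver varied widely among the 12 named regions of the largest ratios, of which 10 were called higher. Over all late-opened regions with a ratio of at least 3, 120 of 162 (74.1%) were higher, with a median of 1.25. Under a ratio of 2, 294 of 440 (66.8%) were higher, with a median of 0.84. Both shares were near the 69.9% of all late-opened regions, against 35.1% of the autosomal regions with an adult mean of at least 5 CPM. The region in Neat1 with the largest ratio had 1.45 (SE 0.26, edgeR adjusted p = 1.39e-05), that by Actb 0.83 (SE 0.23, adjusted p = 0.00403), that by Actg1 0.64 (SE 0.24, adjusted p = 0.0410) and that in Ndrg1 0.98 (SE 0.32, adjusted p = 0.0166). The Iqcn region by Jund, at 0.21 (SE 0.27, adjusted p = 0.576), was not called. The Actb call was lost with loess offsets and with DESeq2, and the Actg1 call in 12 of 18 alternatives, among them without each E12.5 FL library, E16.5 FL 1, E16.5 FL 3, 3w BM 1, 3w BM 2 and 4w BM 1. The Ndrg1 call was lost without 3w BM 2 and with total counts. Col16a1 had the largest of the 12 fold changes, 3.16 (SE 0.29, edgeR adjusted p = 1.15e-12), with 0 to 3.13 CPM in fetal liver. Egr1 had 2.04 and Btg2 1.57 (SE 0.23). Dennd3, Retreg1 and Fam104a had 1.62 (SE 0.31), 1.40 (SE 0.35) and 1.18 (SE 0.27), with edgeR adjusted p of 3.87e-05, 0.00174 and 0.000527.

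A further comparison set E12.5 FL against E12.5 PL. Of the late-opened regions 308 (32.8%) were higher and 97 (10.3%) lower in E12.5 FL by edgeR, against 23.1% and 26.4% of all regions tested. The full set has no minimum of adult level, and autosomal regions that met the minimum of 5 CPM also favoured fetal liver. Their median of group means was 11.8 CPM for E12.5 FL, with 7.25 CPM for PL. For the late-opened regions these medians were 5.32 and 2.96 CPM. The part of that minimum in the shift relative to all regions was not tested. The median log2 fold change was 0.52 for the late-opened regions and 0.09 for all, and it stood 0.43 above that of all regions with TMM, total counts and size factors alike. Of the calls among late-opened regions 76% were higher with TMM, 87% with total counts (422 higher and 63 lower) and 66% with size factors (231 and 119). The higher ones included the 3 miR-142 regions (1.84, 1.95 and 2.44). The lower ones included the Bhlhe40 region (-1.89, edgeR adjusted p = 8.9e-11), by a repressor of the circadian and stress responses, and the Egr1 region (-2.42, edgeR adjusted p = 1.56e-07).

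Of the 938 regions 702 had a counterpart in the table of cultured E12.5 FL cells. Between co-SHI and SHI edgeR called 1 higher and 1 lower, against 0.228% and 0.332% of 145129 regions, and 44 and 48 had an unadjusted p under 0.05. DESeq2 called 1 and 1 as well. The lower one, at a gene end of Zbp1, a sensor of Z-form nucleic acids, held 5.36, 5.67 and 5.39 CPM in co-SHI, against 9.70, 8.52 and 11.1 CPM in SHI (log2 fold change -0.85, SE 0.19, edgeR adjusted p = 0.0290). The groups did not overlap there. The lower call was lost without co-SHI 1, co-SHI 2 or SHI 1, by the counts of 0 there, and without co-SHI 3 the counts were 3 higher and 17 lower. The median level of the 702 was 4.62 to 4.93 CPM in co-SHI and 4.39 to 4.72 CPM in SHI.

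The peak lists that the authors deposited were called per library. A peak overlapped 79.7% ± 8.48 of the late-opened regions in adult libraries (SD, n = 6) and 37.5% ± 16 in neonatal ones (SD, n = 6), against 35.8% ± 6.76 and 33.6% ± 10.2 of all autosomal regions. The adult and neonatal libraries also chose the regions, so the difference between their shares follows from the rule and is a description. In 3w and 4w BM the share was 68.7% ± 11.7 (SD, n = 5) and in E12.5 and E16.5 FL 11.1% ± 4.56 (SD, n = 6), against 37.4% ± 8.79 and 16.6% ± 4.81 of all autosomal regions. The share was above that of all autosomal regions in each of the 5 libraries of 3w and 4w BM and was below it in each of the 6 fetal liver libraries. In cultured cells it was 33.1% to 55.9% in co-SHI and 55.9% to 57.7% in SHI, below all autosomal regions in each library. The number of peaks per library also differed. It was 28609 to 50657 in 3w and 4w BM and 9361 to 23478 in fetal liver, and its part in the difference was not tested. Between adult (30443 to 50806) and neonatal libraries (24038 to 50706) the ranges of peak numbers overlapped.

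**Figure D5:**
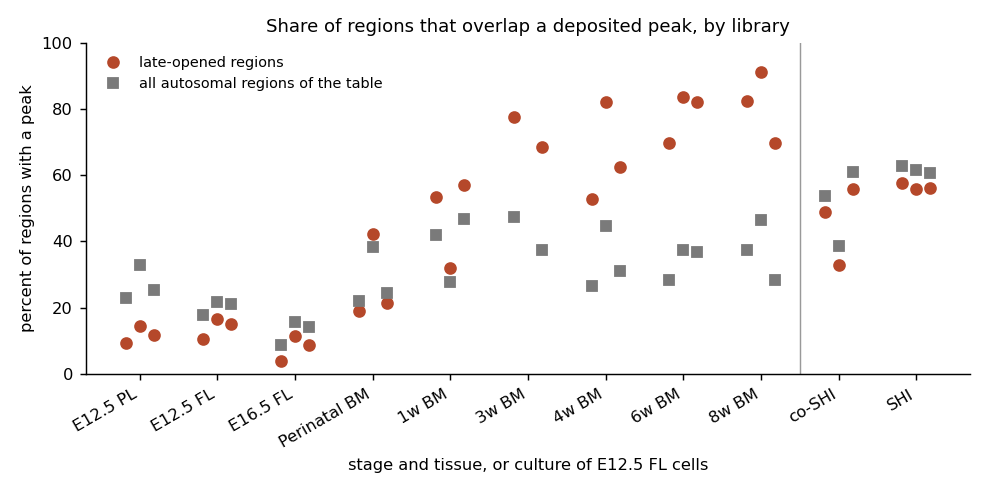
Percent of late-opened regions (circles) and of all autosomal regions in the table (squares) that overlap a peak of each library, by stage and tissue, with the 2 cultures right of the line. The circles are above the squares in every library of 3w BM to 8w BM and below them in every library of E12.5 PL, both fetal livers and both cultures.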

How the data were processed

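ATAC-seq libraries of LSK cells were used, 26 developmental and 6 cultured ones. DiffBind, HOMER, MACS2, Trim Galore and deepTools are listed in the submitters' processing notes, with build mm10, without an aligner, settings, Tn5 offset or duplicate removal, each of which could change the counts. The count tables the authors deposited hold raw counts per region, with no scaling. Their deposited peak lists, called per library, give a display score, a fold enrichment ratio, −log10 p and −log10 q per peak, and were used to overlap (1 base) and filter peaks.

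CPM are counts divided by the column sum, in the usual unit. Regions passing filterByExpr (minimum count 10) were scaled by TMM and tested two-sided with edgeR 4.0.16 (quasi-likelihood, R 4.3.3) in 1 fit of the 9 developmental groups and 1 of the cultured cells, with Benjamini-Hochberg adjustment at 0.05. The analysis was tested on simulated data. Cultured regions were joined at 50% mutual overlap with bedtools 2.31.1. Libraries of a group differed beyond sampling noise (chi-square per region 2.11 to 5.88). The p-values measure the spread between samples, which may be technical. Same-numbered libraries did not deviate together (r = -0.037 to 0.094), so the numbers were not taken as pairs.

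Genes came from RefSeq spans of GRCm38.p6, the nearest within 50 kb, with "gene end" for one that reaches within 1 kb of where a span starts or stops and "intergenic" for one outside it. Starts and strands came from the promoter table of the same assembly. Coordinates are of mm10, counted from 1. No genome was used, so region sequences beyond promoters and microRNAs are not printed.

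The regions and the 22 gene lists were chosen with earlier results of these data known. Named were the 12 largest ratios with an adult mean of at least 10 CPM, the 8 smallest p in each direction over fetal liver, the 8 gene-end regions of highest adult level, up to 4 regions per list, the 6 genes with most regions, the 3 regions on each side of the ratio threshold, and calls between 4w and 3w BM or between fetal livers. Other names were chosen after their values were seen. The region called higher in co-SHI is not reported here. Alternatives were leaving out each library, total counts, cyclic loess offsets or DESeq2's size factors in place of TMM, the test of DESeq2 1.42.0, fits without the filter, with the replicate number as a block or with only the groups compared, stricter peaks, and other thresholds of the rule.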

Additional observations from a re-analysis of the deposited data

How the results depend on the processing

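A ratio of at least 2 left 498 regions and an adult mean of at least 10 CPM 559, leaving out 1 library gave 1014 to 1222 and TMM-scaled CPM 1151. Over fetal liver, the number higher at 3w and 4w BM was 560 to 657 in all alternatives (596 to 645 leaving out 1 library), and the number lower was 11 with total counts, 9 with loess offsets, 9 with the compared groups alone and 2 to 5 leaving out 1 library. Between 4w and 3w BM the compared groups alone gave 9 higher and 1 lower, and leaving out 1 library 0 in both directions. Between E16.5 and E12.5 FL DESeq2 gave 3 higher, and leaving out 1 library 0 to 2 higher and 0 to 1 lower. In E12.5 FL over PL 63 were lower with total counts, and leaving out 1 library gave 261 to 294 higher and 77 to 91 lower. In co-SHI over SHI total counts gave 3 higher and 3 lower, and leaving out 1 library 0 to 3 higher and 0 to 17 lower. With the replicate number as a block, 657 were higher and 4 lower over fetal liver and 2 higher and 5 lower in co-SHI over SHI; no other count moved by over 1.5 times. Asking for an overlap of at least 50% of the region, a peak overlapped 39.1% of the regions in 3w and 4w BM and 4.02% in fetal liver, and 74.4% had a gene within 10 kb. Over fetal liver, 74 of 85 named regions were called, 58 of them in all 18 alternatives. Some of the 85 were named for their small p in this comparison, so the count is a description. Of all late-opened regions 69.9% were called higher, and of the autosomal regions with an adult mean of at least 5 CPM 35.1%. The sign turned for uncalled regions only: with loess offsets for Iqcn (-0.22), with total counts for a region of Nav2 (-0.105), and over the fits that left out 1 library for Gbp2 (-0.211 to 0.111), Iqcn (-0.0259 to 0.441) and Nav2 (-0.205 to 0.315 in that region and -0.385 to 0.107 in another). Causes were not tested. Regions near 5 CPM hold few reads at these depths, and groups of 2 or 3 libraries limit what a missed call shows.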
